A study of Mus musculus with 8 samples.

Results

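Most mouse genes whose symbol starts with Ube2 encode ubiquitin-conjugating enzymes, and their transcripts were compared between single oocytes of Setd1b conditional knockout females and of control females. Members were all genes of the count table with a Ube2 symbol, leaving out the pseudogene, which gave 40 of 37224 genes. The libraries were 8 single MII oocytes, mature eggs paused in their second meiosis, from superovulated mice, 4 labelled knockout (genotype Setd1bGdf9cKO) and 4 labelled control. The name Setd1bGdf9cKO denotes a conditional knockout of Setd1b, a histone H3 lysine methyltransferase gene, with the Cre recombinase driven by Gdf9, a gene of growing oocytes. Deletion is therefore directed to the oocyte, and the somatic cells of the ovary are not its target. The labels give neither the age of the females, nor the alleles of the controls, nor how many females gave oocytes, so each p-value reflects the spread among these 8 oocytes alone.

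Ubiquitin is activated by an E1 enzyme, passed to a cysteine of an E2 (conjugating) enzyme and then moved to a protein substrate with the help of an E3 ligase. The E2 sets much of what is built, from single ubiquitins to chains that send a protein to the proteasome, and some E2 enzymes carry NEDD8 or ISG15 in place of ubiquitin. Oocytes stop transcribing before they mature, so that the egg and the first divisions of the embryo depend on stored proteins and mRNAs and on their timed removal. Ube2a, a homologue of yeast RAD6, is a maternal effect gene in mice: embryos of females that lack it stop dividing early in cleavage.

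The active site that the Ube2 enzymes share is shown for 9 of the genes that differed between knockout and control oocytes, since it is the part that makes them conjugating enzymes and shows how far related members differ in the reads they give. Each line is 30 coding bases, 10 codons, read 5′ to 3′ on the coding strand of the GENCODE transcript in the mouse build GRCm38 (mm10), with the codon of the active-site cysteine in capitals. This window was found by a search for codons of the conserved His-Pro-Asn stretch followed at a short distance by a cysteine. Of the 37 members with a coding sequence 22 matched. The search does not tell whether the other members have an active-site cysteine.
Ube2a: cctaacgtctatgcagatggtagtataTGT
Ube2b: ccaaatgtgtatgctgatggtagcataTGT
Ube2t: ccaaacattgattctagtggaaggattTGT
Ube2m: cccaacattgacctcgagggcaacgtcTGC
Ube2f: cccaacatcacagaaacgggggaaataTGT
Ube2g2: cccaacatctatcctgatggcagagtcTGC
Ube2d1: ccaaatataaacagcaacgggagtattTGT
Ube2d3: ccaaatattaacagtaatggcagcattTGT
Ube2k: aatattagttccgtcacaggggctattTGT
The windows lie at chrX:36881740-36882621 (Ube2a, plus strand, exons 4 and 5, codon 88 for the cysteine), chr11:51988678-51991400 (Ube2b, minus strand, exons 4 and 5, codon 88) and chr10:77641572-77643491 (Ube2g2, plus strand, exons 4 and 5, codon 89), where the coordinates take in the intron between the exons. The others lie within 1 coding exon, at chr1:134971299-134971328 (Ube2t, plus strand, exon 4, codon 86), chr7:13036226-13036255 (Ube2m, minus strand, exon 4, codon 111), chr1:91276422-91276451 (Ube2f, plus strand, exon 7, codon 116), chr10:71258250-71258279 (Ube2d1, minus strand, exon 5, codon 85), chr3:135460002-135460031 (Ube2d3, plus strand, exon 5, codon 85) and chr5:65581416-65581445 (Ube2k, plus strand, exon 4, codon 92). The Ube2a and Ube2b windows differ at 5 of 30 bases, which touch 5 of 10 codons. Those of Ube2d1 and Ube2d3 also differ at 5 of 30 bases, while those of Ube2m and Ube2f, which both carry NEDD8, differ at 15 of 30. Over their whole coding sequences of 459 bases each, Ube2a and Ube2b are 77.6% identical with no shared run above 17 bases, shorter than the 75-base reads.

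The knockout libraries held 9488899 to 11313502 counts and the control libraries 11029602 to 13519404. Between 11190 and 12153 genes had at least 10 counts in a knockout library, against 9913 to 10714 in a control library. Levels are given as counts per 1000000 (CPM) after scaling with TMM factors, which correct for a few abundant genes taking up a library (1.07 to 1.22 for knockout, 0.800 to 0.947 for control libraries). Setd1b itself had 4.42, 5.05, 2.96 and 3.54 CPM in knockout oocytes, against 10.7, 12.8, 9.22 and 10.9 CPM in control oocytes, without overlap (log2 fold change -1.44 ± 0.41 SE, edgeR adjusted p = 0.0221). Its adjusted p was 0.0525 without knockout replicate 3, 0.05031 without knockout replicate 4 and 0.05602 without control replicate 2. All 10 oocyte markers were measured, with a summed level of 14772.5 to 18875 CPM in knockout and 16538 to 22409 CPM in control libraries. Of these markers 4 rose (Zp1, Zp2, Zp3 and Nlrp5, log2 fold changes 1.54 to 3.02) and Oosp1 fell. Of 22 markers of cumulus and granulosa cells, the somatic cells around the oocyte, 8 were at 0 in every library (Amh, Amhr2, Inha, Inhbb, Foxl2, Ptx3, Tnfaip6 and Gja1), and the list summed to 173 to 267 CPM in knockout against 294 to 311 CPM in control libraries. Of its 7 tested genes Cyp19a1 and Esr2 fell, and the other 5 did not pass. Cyp19a1 and Esr2 had the highest levels of the list and so weigh most in its sum. Their means were 49.2 and 63.0 CPM in knockout oocytes, against 88.6 and 110 CPM in control oocytes. The part of these marker differences in the results below was not tested.

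Among the Ube2 genes, 6 rose and 4 fell in Setd1b knockout oocytes. The genes that rose were Ube2a and Ube2b (the RAD6 pair), Ube2t (Fanconi anaemia pathway), Ube2m and Ube2f (both NEDD8) and Ube2g2 (degradation of proteins of the endoplasmic reticulum). The genes that fell were Ube2d1, Ube2d2a and Ube2d3, which work with a broad range of ligases, and Ube2k, which extends ubiquitin chains. A gene counts as changed at an adjusted p under 0.05 by edgeR's quasi-likelihood test, adjusted by the Benjamini-Hochberg method over all 11066 genes tested. Of the 40 members 30 passed the filter on low counts, and the 10 that changed are 33.3% of these, beside 25.8% of all tested genes. In the upward direction it was 6 of 30, beside 13.6% of tested genes (1503), and downward 4 of 30, beside 12.2% (1347). The median log2 fold change of the 30 members was 0.41, against 0.10 over all tested genes. Knockout and control libraries did not overlap for 12 of the 30 tested members (40%), against 31.3% of all tested genes, and these were the 10 changed genes with Ube2c and Ube2l3. The count of members that fell was 2 without knockout replicate 1 and 2 without knockout replicate 2, against 4 with all libraries.

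**Figure D1:**
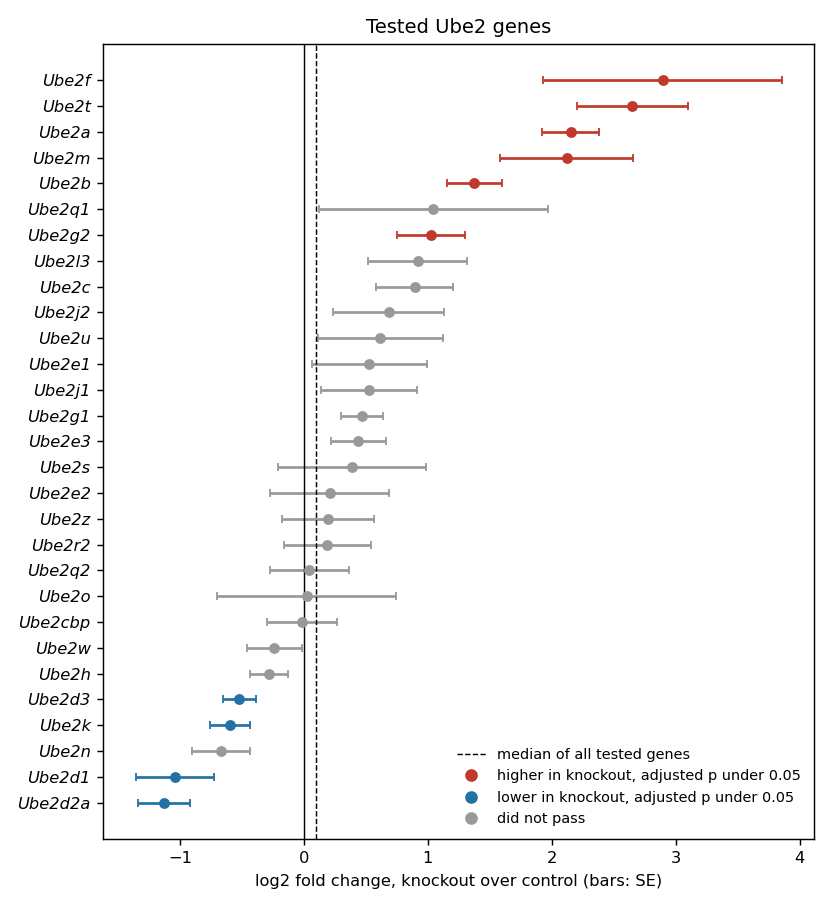
The log2 fold change, knockout over control, of the tested Ube2 genes reported here is plotted with its standard error, red for genes that rose, blue for genes that fell and grey for those that did not pass. The 6 red genes lie at 1.02 or above and the 4 blue genes at -0.52 or below, and the dashed line marks the median of all tested genes at 0.10.

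The RAD6 homologues Ube2a and Ube2b, which work with the ligase Rad18 in DNA damage tolerance, with Rnf20 and Rnf40 on histone H2B and with the Ubr ligases of the N-degron pathway, were both higher in knockout oocytes. Ube2a (ENSMUSG00000016308, X chromosome, 36874358 to 36884215, plus strand) had 215, 279, 197 and 145 CPM in knockout oocytes, against 41.0, 45.5, 41.3 and 60.5 CPM in control oocytes. Even the lowest knockout oocyte, replicate 4, stood well above the highest control oocyte. The mean level of Ube2a was 209 ± 55.4 CPM in knockout and 47.1 ± 9.15 CPM in control oocytes (SD, n = 4 each), a log2 fold change of 2.15 ± 0.23 SE or 4.44-fold (edgeR adjusted p = 0.000106). Ube2b (chromosome 11, 51985497 to 52000762, minus strand) had 57.1, 74.7, 56.8 and 53.9 CPM in knockout oocytes, against 23.0, 26.5, 24.1 and 19.8 CPM in control oocytes. Its groups were also apart, with all 4 knockout oocytes more than 2-fold above the highest control oocyte. The mean level of Ube2b was 60.6 ± 9.51 CPM in knockout and 23.4 ± 2.79 CPM in control oocytes (SD, n = 4 each), a log2 fold change of 1.38 ± 0.22 SE or 2.60-fold (edgeR adjusted p = 0.001203). None of the 75-base stretches of either gene's protein-coding transcripts occurs in another annotated gene, so reads of the pair are told apart. Per kilobase of transcript, the level of Ube2a was 4.82, 4.78, 4.43 and 3.45 times that of Ube2b in knockout oocytes, against 2.28, 2.20, 2.19 and 3.91 times in control oocytes. Control replicate 4 lay inside the knockout range of this ratio, so the groups overlapped.

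Ube2t, which with the ligase Fancl adds ubiquitin to the FANCD2 and FANCI proteins in the repair of DNA crosslinks, had the highest level of the genes that rose. This gene (chromosome 1, 134962565 to 134974162, plus strand) had 693, 689, 602 and 478 CPM in knockout oocytes, against 225, 67.5, 51.8 and 49.3 CPM in control oocytes. Control replicate 1 stood apart from the other control oocytes and was still below every knockout oocyte. Its mean level was 616 ± 101 CPM in knockout and 98.4 ± 84.8 CPM in control oocytes (SD, n = 4 each), a log2 fold change of 2.65 ± 0.45 SE or 6.27-fold (edgeR adjusted p = 0.001626). Without control replicate 1 the log2 fold change was 3.45. The authors' deposited table, as used here, has a row for 9 of the 10 changed Ube2 genes and none for Ube2t, while DESeq2 on the counts gave Ube2t an adjusted p of 2.24e-05. Fancl had 7.27 ± 5.80 CPM in knockout and 1.48 ± 1.34 CPM in control oocytes (SD, n = 4 each) and did not pass (log2 fold change 2.29 ± 0.83 SE, edgeR adjusted p = 0.06212). Fancl rested on 344 knockout and 66 control counts and passed the filter on low counts through the knockout libraries. Its knockout replicate 3 was at 15.9 CPM, where the other knockout oocytes had 3.35 to 5.12 CPM. Without control replicate 2, the highest control oocyte at 3.19 CPM, the log2 fold change of Fancl was 3.01 (edgeR adjusted p = 0.03404).

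**Figure D2:**
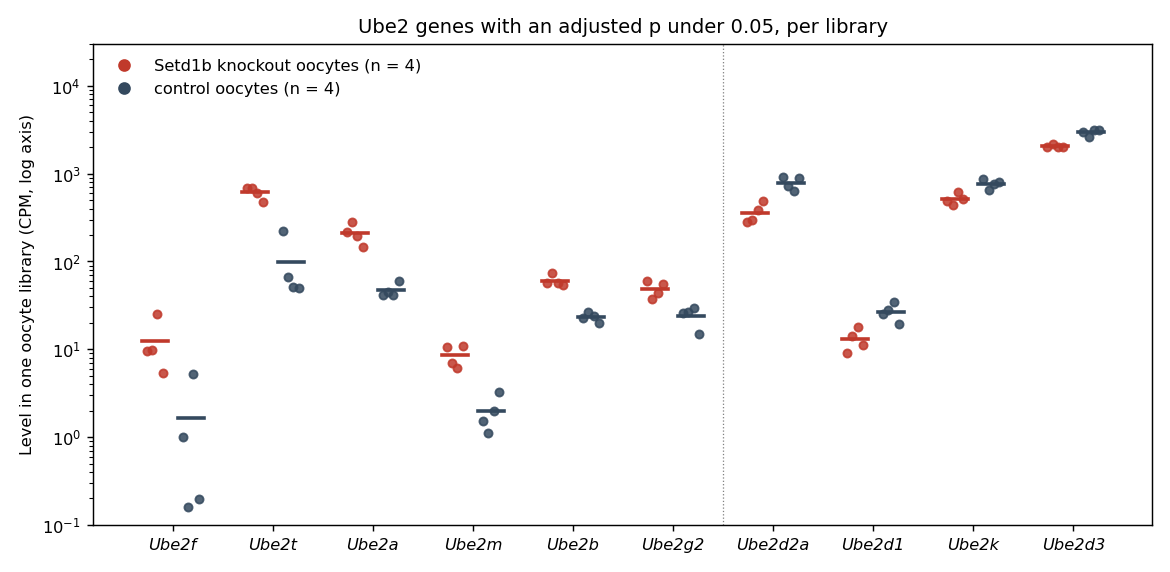
The level of each of the 10 changed Ube2 genes is plotted for every oocyte library in CPM on a log axis, knockout (red) left of control (dark blue), with a bar at the mean of each group. Red points lie above dark blue ones for the 6 genes left of the dotted line and below them for the 4 genes right of it, with no overlap in any of the 10.

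Of the Ube2d group, whose enzymes start ubiquitin chains with many ligases, all 3 tested members fell. Ube2d3 (chromosome 3, 135438297 to 135467178, plus strand) was the most abundant Ube2 transcript per kilobase in both genotypes, at 771 ± 29.9 CPM per kilobase in knockout and 1110 ± 85.6 CPM per kilobase in control oocytes (SD, n = 4 each). It had 2035, 2181, 2021 and 2011 CPM in knockout oocytes, against 2961, 2631, 3122 and 3112 CPM in control oocytes. The knockout oocytes were close to one another and all below the lowest control oocyte, and the log2 fold change was -0.52 ± 0.14 SE (edgeR adjusted p = 0.0161). Ube2d2a (chromosome 18, 35771559 to 35807172, plus strand) had 280, 295, 382 and 484 CPM in knockout oocytes, against 906, 717, 627 and 904 CPM in control oocytes. The highest knockout oocyte was below the lowest control oocyte, with means of 360 ± 93.9 CPM in knockout and 789 ± 140 CPM in control oocytes (SD, n = 4 each) and a log2 fold change of -1.13 ± 0.21 SE (edgeR adjusted p = 0.002675). Ube2d1 (chromosome 10, 71254980 to 71285262, minus strand) was the least abundant of the 3, with 9.0, 14.1, 18 and 11.2 CPM in knockout oocytes, against 25.1, 28.1, 34.9 and 19.4 CPM in control oocytes. Its groups came close, at knockout replicate 3 and control replicate 4, and the log2 fold change was -1.04 ± 0.32 SE (edgeR adjusted p = 0.03162). Its adjusted p was between 0.06252 and 0.09254 without knockout replicate 1, 2 or 4 or without control replicate 2 or 3. Other annotated genes share 14% of the 75-base stretches of Ube2d2a and 10.6% of those of Ube2d3, and none of those of Ube2d1, and reads of shared stretches cannot be assigned to 1 gene.

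Among the enzymes that extend ubiquitin chains, Ube2k fell and Ube2g2 rose. Ube2k (chromosome 5, 65537233 to 65598988, plus strand), which builds chains that mark proteins for the proteasome, had 483, 436, 612 and 515 CPM in knockout oocytes, against 864, 655, 773 and 796 CPM in control oocytes. No knockout oocyte reached the lowest control oocyte, though knockout replicate 3 came near it, and the log2 fold change was -0.59 ± 0.16 SE (edgeR adjusted p = 0.0189). The adjusted p of Ube2k was 0.05545 without knockout replicate 1 and 0.06921 without knockout replicate 2. Ube2g2 (chromosome 10, 77622275 to 77645993, plus strand), which works at the endoplasmic reticulum, had 60.4, 37.3, 44.2 and 55.1 CPM in knockout oocytes, against 26.0, 26.4, 29.4 and 15.0 CPM in control oocytes. All knockout oocytes were above all control oocytes, with a log2 fold change of 1.02 ± 0.27 SE or 2.03-fold (edgeR adjusted p = 0.01749), and the adjusted p was 0.05899 without knockout replicate 1. Of the exonic bases of Ube2g2, 10.3% overlap other genes, Sumo3 and Mir1930, and Sumo3 rose as well. Whether reads of the shared bases entered the Ube2g2 counts was not tested. Ube2g1, a relative of Ube2g2 and one of the 5 most abundant members per kilobase, had 684, 603, 666 and 812 CPM in knockout oocytes, against 463, 459, 437 and 639 CPM in control oocytes. Control replicate 4 was above knockout replicate 2, and Ube2g1 did not pass (log2 fold change 0.47 ± 0.17 SE, edgeR adjusted p = 0.06495). It passed without control replicate 4, with a log2 fold change of 0.61 (edgeR adjusted p = 0.01916). Leaving out any other library gave an edgeR adjusted p of 0.07523 to 0.159. The log2 fold change of Ube2g1 was 0.87 with library totals (edgeR adjusted p = 0.001683). With the length trend removed it was 0.28 (edgeR adjusted p = 0.2995). Ube2r2, a chain builder for the cullin ligases, averaged 18.7 CPM in knockout and 16.4 CPM in control oocytes (log2 fold change 0.19) and did not pass.

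Both E2 enzymes of NEDD8, a ubiquitin-like protein whose transfer switches on the cullin ligases, were higher in knockout oocytes, from low levels. Ube2m (chromosome 7, 13035120 to 13038275, minus strand) had 10.5, 7.01, 6.20 and 10.9 CPM in knockout oocytes, against 1.54, 1.12, 1.98 and 3.30 CPM in control oocytes. The groups were apart, with means of 8.65 ± 2.39 CPM in knockout and 1.98 ± 0.944 CPM in control oocytes (SD, n = 4 each) and a log2 fold change of 2.12 ± 0.54 SE or 4.35-fold (edgeR adjusted p = 0.01352). It rested on 419 knockout and 85 control counts. Ube2f (chromosome 1, 91250311 to 91288877, plus strand) had 9.60, 9.72, 25.2 and 5.40 CPM in knockout oocytes, against 0.990, 0.160, 5.27 and 0.20 CPM in control oocytes. Knockout replicate 3 and control replicate 3 were each far above the rest of their group, and the lowest knockout oocyte was just above the highest control oocyte. Of its 77 control counts 64 came from control replicate 3, and 2 control libraries held 2 counts each, under the floor of 3, so that it passed the filter through the knockout libraries (596 counts). The log2 fold change of Ube2f was 2.89 ± 0.96 SE or 7.43-fold (edgeR adjusted p = 0.04488), and it was 4.81 without control replicate 3 and 2.29 without knockout replicate 3. Leaving out any library other than control replicate 3 raised its adjusted p to between 0.05459 and 0.1412.

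Ube2c, Ube2s and Ube2n did not pass the test. Ube2c, which starts chains for the anaphase-promoting complex, the ligase that drives exit from meiosis, had 26.6, 21.2, 22.1 and 21.1 CPM in knockout oocytes, against 16.8, 9.74, 8.65 and 13.9 CPM in control oocytes. The groups did not overlap, and the test fell just short (log2 fold change 0.89 ± 0.31 SE, edgeR adjusted p = 0.05259). Without control replicate 1 the adjusted p of Ube2c was 0.03333, and with DESeq2 it was 0.0316. It was also under 0.05 with library totals (0.007745), with at least 10 CPM in 4 libraries (0.02484) and after thinning to the smallest total (0.04629). Leaving out any library other than control replicate 1 gave Ube2c an edgeR adjusted p of 0.05915 to 0.1292. With the length trend removed its log2 fold change was 0.53 (edgeR adjusted p = 0.2121). Ube2c also did not pass with median-of-ratios factors, no filter or the replicate number as a block (edgeR adjusted p = 0.06351 to 0.09282). Of its exonic bases, 22.8% overlap Tnnc2 on the opposite strand, and the counting did not use strand. Ube2s, which extends the chains that Ube2c starts, averaged 4.32 CPM in knockout and 3.29 CPM in control oocytes (log2 fold change 0.39). Ube2n, which pairs with Ube2v1 or Ube2v2 to build chains used in DNA damage and immune signalling, averaged 45.4 ± 9.39 CPM in knockout and 72.3 ± 16.4 CPM in control oocytes (SD, n = 4 each, log2 fold change -0.67 ± 0.24 SE, edgeR adjusted p = 0.05575). It passed without control replicate 2 (edgeR adjusted p = 0.03832) and with DESeq2 (adjusted p = 0.02208). It also passed with median-of-ratios factors (edgeR adjusted p = 0.04807) and with the length trend removed (edgeR adjusted p = 0.02528). With library totals the log2 fold change of Ube2n was -0.27 (edgeR adjusted p = 0.3718). Ube2n did not pass with the replicate number as a block (edgeR adjusted p = 0.1188). Leaving out any library other than control replicate 2 gave an edgeR adjusted p of 0.05678 to 0.152.

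The other tested members, none of which passed, ranged widely in level. Ube2h, the partner of the CTLH ligase complex, averaged 260 ± 28.0 CPM in knockout and 315 ± 35.2 CPM in control oocytes (SD, n = 4 each, log2 fold change -0.28), and Ube2w, which modifies protein N-termini, averaged 58.5 CPM in knockout and 69 CPM in control oocytes (log2 fold change -0.24). In the Ube2e group, log2 fold changes were 0.44 for Ube2e3 (99.2 CPM in knockout, 73.2 CPM in control oocytes), 0.21 for Ube2e2 and 0.53 for Ube2e1. Other genes share 48.3% of the 75-base stretches of Ube2e1 and 38.0% of those of Ube2h. Ube2j1 and Ube2j2, which sit in the membrane of the endoplasmic reticulum, had log2 fold changes of 0.52 and 0.68. Ube2l3, which serves the RBR class of ligases, averaged 10.3 ± 2.14 CPM in knockout and 5.44 ± 1.22 CPM in control oocytes (SD, n = 4 each) without overlap of the groups (log2 fold change 0.92 ± 0.40 SE, edgeR adjusted p = 0.112), but 43.7% of its exonic bases are covered by other genes, Ydjc among them. The remaining log2 fold changes were 1.04 for Ube2q1, 0.62 for Ube2u, 0.19 for Ube2z, 0.04 for Ube2q2, 0.02 for Ube2o and -0.01 for Ube2cbp. Over the 20 members that did not pass, 15 log2 fold changes were positive and 5 negative.

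Of the 10 members left out by the filter, Ube2v2, a partner of Ube2n that lacks the active-site cysteine, was the one with the most counts. It had 0.675, 2.49, 2.51 and 1.4 CPM in knockout oocytes, against 0, 0.160, 0 and 0 CPM in control oocytes, from 85 counts in knockout and 2 counts in control libraries. Every knockout oocyte was above every control oocyte, and the authors' deposited table gives Ube2v2 an adjusted p of 0.0009065. Ube2ql1 had 20 counts in knockout and 0 in control libraries, and Ube2dnl1, a relative of the Ube2d genes, had 0 in knockout and 22 in control libraries, which came from 2 control oocytes. Ube2uos, an RNA from the strand opposite Ube2u, had 31 counts in knockout and 25 in control libraries, and Ube2v1 had 9 in knockout and 3 in control libraries, with 77.4% of its 75-base stretches shared with other genes. Ube2nl had 2 counts in knockout and 1 in control libraries and Ube2d4 had 1 in knockout and 0 in control libraries. Ube2l6, the E2 of ISG15, Ube2d2b and Ube2dnl2 had none in any library, where 3 counts correspond to 0.222 to 0.316 CPM before TMM scaling.

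The makeup of the Ube2 transcripts shifted in the knockout oocytes, as seen from shares of the family's counts per kilobase, which do not depend on how libraries are scaled. The shares of a library sum to 100%, so a larger share of Ube2t or Ube2a lowers those of the other members. A smaller share of Ube2d3, Ube2d2a or Ube2k is therefore no separate evidence that its level fell. Ube2d3 made up 40.2, 42.1, 40.03 and 41.2% of Ube2 counts per kilobase in knockout oocytes, against 52.2, 55.3, 60.0 and 55.2% in control oocytes. Ube2t made up 20.5, 19.9, 17.9 and 14.7% in knockout oocytes, against 5.94, 2.13, 1.49 and 1.31% in control oocytes. Ube2d3 was the leading member in all 8 libraries, Ube2t was second in every knockout oocyte, and Ube2d2a was second in every control oocyte. The share of Ube2a was 6.65 ± 1.61% in knockout and 1.43 ± 0.254% in control oocytes, that of Ube2d2a 7.73 ± 2.21% in knockout and 15.9 ± 2.02% in control oocytes, and that of Ube2k 5.25 ± 0.814% in knockout and 7.49 ± 0.343% in control oocytes (SD, n = 4 each). Ratios within a library were read in the same way. Ube2a per kilobase was 0.170, 0.206, 0.157 and 0.116 times the level of Ube2d3 in knockout oocytes, against 0.0223, 0.0278, 0.0213 and 0.0313 times in control oocytes. Ube2t was 0.511, 0.474, 0.447 and 0.357 times the level of Ube2d3 in knockout oocytes, against 0.114, 0.0384, 0.0249 and 0.0237 times in control oocytes. That both ratios were apart follows from the levels given above and adds nothing to them. Within the Ube2d group, the ratio of Ube2d2a to Ube2d3 was 0.148, 0.146, 0.203 and 0.259 in knockout and 0.330, 0.294, 0.216 and 0.313 in control oocytes, and here knockout replicate 4 was above control replicate 3.

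**Figure D3:**
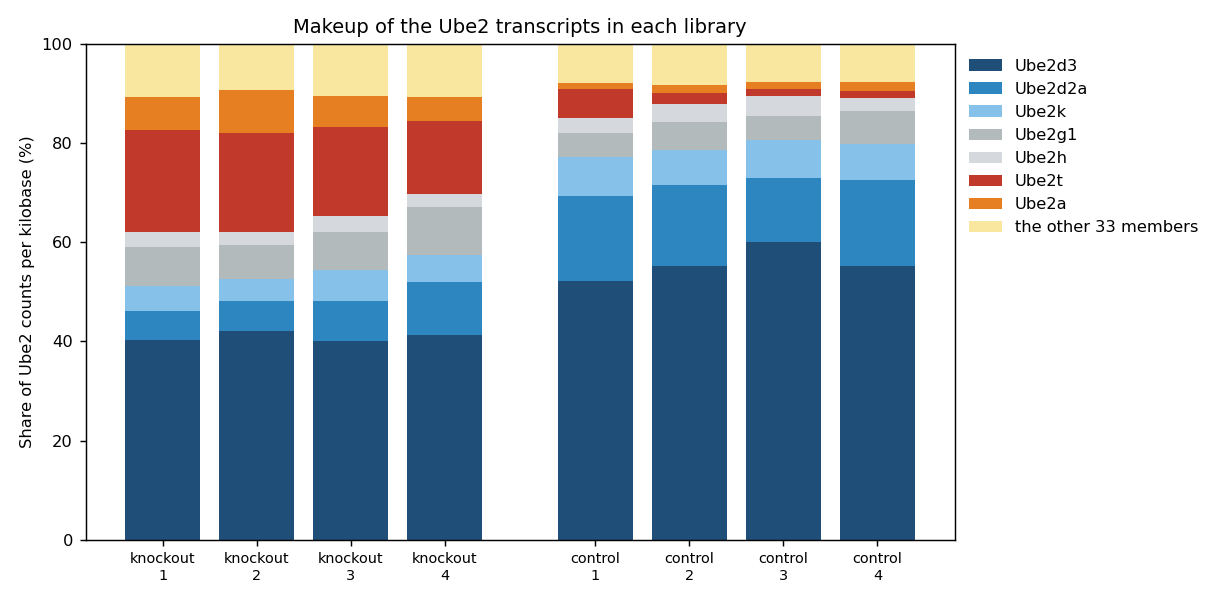
Each bar is 1 oocyte library, with the share of its Ube2 counts per kilobase of transcript in percent, knockout libraries left of control libraries. Ube2d3 (dark blue) takes 40.03 to 42.1% in knockout and 52.2 to 60.0% in control libraries, and Ube2t (red) and Ube2a (orange) are wider in each knockout library.

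The direction of the family as a whole depends on the scaling. Ube2 genes took 0.642, 0.621, 0.578 and 0.601% of all counts in knockout libraries, against 0.522, 0.499, 0.559 and 0.511% in control libraries. After TMM scaling the summed level was 5283, 5291, 5408 and 5306 CPM in knockout oocytes, against 6327, 5380, 5909 and 6386 CPM in control oocytes. The share of counts was higher in every knockout library, while the scaled sum was higher in 3 of 4 control oocytes than in any knockout oocyte. Scaling by library totals alone moved the median over all tested genes to a log2 fold change of 0.49, and 10 members were then higher and 1 lower, beside 21.5% and 4.61% of tested genes. Under that scaling Ube2d3 had a log2 fold change of -0.12 (edgeR adjusted p = 0.4934), Ube2k of -0.20 (edgeR adjusted p = 0.2998) and Ube2d1 of -0.68 (edgeR adjusted p = 0.1499), and none of the 3 passed, while Ube2d2a did. Setd1b itself had a log2 fold change of -1.04 there (edgeR adjusted p = 0.0887). With a trend of fold change on gene length removed, the median over all tested genes was -0.10, 1180 tested genes were higher and 1914 lower (10.7% and 17.3%), and 5 members were higher and 6 lower. Ube2g2 no longer passed in that fit (log2 fold change 0.65, edgeR adjusted p = 0.08234). The directions of the 10 changed genes were the same under all 4 scalings, and Ube2a, Ube2b, Ube2t, Ube2m, Ube2f and Ube2d2a passed under each. Ube2f did so narrowly (edgeR adjusted p = 0.03487 to 0.04665). As given above, Ube2f did not pass when any 1 library other than control replicate 3 was left out.

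**Figure D4:**
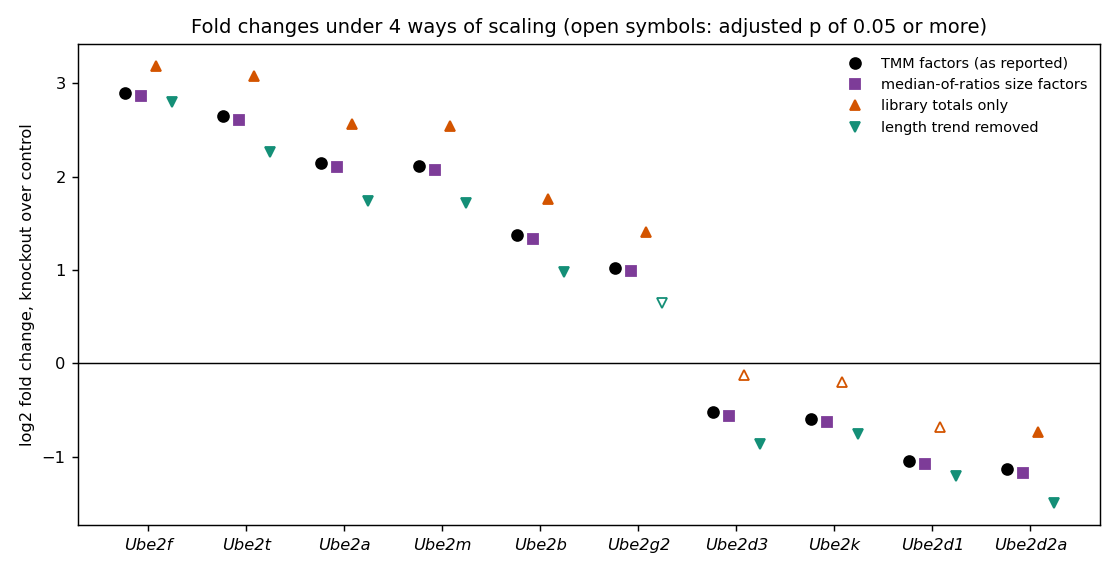
The log2 fold change, knockout over control, of the 10 changed genes is plotted under 4 ways of scaling, with open symbols where the adjusted p was 0.05 or more. The 6 genes at the left stay above 0 and the 4 at the right below 0, and the open symbols are Ube2d3, Ube2k and Ube2d1 under library totals and Ube2g2 with the length trend removed.

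Upstream of the Ube2 enzymes, several genes for ubiquitin and its relatives were higher in knockout oocytes and those for E1 enzymes mostly did not pass. Of 12 modifier genes 8 were tested, 5 rose and 0 fell, beside 13.6% and 12.2% of all tested genes, with a median log2 fold change of 0.95 against 0.10 over all tested genes. Ubb, which encodes ubiquitin as tandem copies, averaged 659 ± 126 CPM in knockout and 305 ± 74.9 CPM in control oocytes (SD, n = 4 each, log2 fold change 1.11, edgeR adjusted p = 0.003761). Nedd8, the modifier that Ube2m and Ube2f carry, averaged 157 ± 14.5 CPM in knockout and 42.9 ± 19.7 CPM in control oocytes (SD, n = 4 each, log2 fold change 1.88, edgeR adjusted p = 0.001096). Sumo3 (log2 fold change 1.07) and Atg12, the modifier of autophagy (0.83), also rose, Atg12 not passing with the length trend removed (edgeR adjusted p = 0.07617). Uba3, the catalytic subunit of the E1 for NEDD8, moved the other way, with 115 ± 28.6 CPM in knockout and 221 ± 40.8 CPM in control oocytes (SD, n = 4 each, log2 fold change -0.95, edgeR adjusted p = 0.00785). It was the only one of 8 tested E1 genes to pass, with a median log2 fold change of -0.35 over the 8. Uba1, the main E1 of ubiquitin, had a log2 fold change of -0.21, or 0.16 under scaling by library totals, and passed under neither.

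Of the 9 genes with an E2 fold but another name, 2 rose and 2 fell, beside 13.6% and 12.2% of all tested genes, with a median log2 fold change of -0.17. Tsg101, an endosomal sorting gene whose E2-like domain lacks the cysteine, averaged 176 ± 15.4 CPM in knockout and 74.0 ± 11.6 CPM in control oocytes (SD, n = 4 each, log2 fold change 1.25, edgeR adjusted p = 0.0005783). Ufc1, the E2 of UFM1, averaged 5.84 ± 1.55 CPM in knockout and 1.13 ± 0.489 CPM in control oocytes (SD, n = 4 each, log2 fold change 2.35, edgeR adjusted p = 0.01518). Ufc1 rested on 285 knockout and 51 control counts and passed the filter on low counts through the knockout libraries. Birc6, a very large E2 and ligase in 1 protein, and Atg3, an E2-like enzyme of autophagy, had log2 fold changes of -0.55 and -0.84. The adjusted p of Ufc1 was 0.05737 without knockout replicate 1, that of Birc6 was 0.05893 to 0.09914 without knockout replicate 1 or 2 or control replicate 2 or 4, and that of Atg3 was 0.05152 to 0.09788 without knockout replicate 1, 2 or 3 or control replicate 1 or 4. Birc6 and Atg3 also did not pass under scaling by library totals (edgeR adjusted p = 0.4785 and 0.2198). Of 44 names of ligases and cofactors that work with particular E2 enzymes, 42 were matched and 40 tested, of which 8 rose and 7 fell, beside 13.6% and 12.2% of all tested genes, with a median log2 fold change of 0.06. Rnf8, a DNA damage ligase that works with Ube2n, averaged 235 ± 33.9 CPM in knockout and 96.1 ± 17.0 CPM in control oocytes (SD, n = 4 each, log2 fold change 1.29, edgeR adjusted p = 0.0006603). Anapc11, the subunit of the anaphase-promoting complex that binds the E2, had a log2 fold change of 1.5 (edgeR adjusted p = 0.004833). Cul1, the scaffold of the SCF ligases, averaged 1252 ± 206 CPM in knockout and 2605 ± 525 CPM in control oocytes (SD, n = 4 each, log2 fold change -1.06, edgeR adjusted p = 0.002147). Shprh (log2 fold change -0.93), Rmnd5a of the CTLH complex that pairs with Ube2h (-0.81) and Ube3a, a ligase of the HECT class (-1.04), also fell. Among the partners of the RAD6 pair, picked out after their values were seen, Rnf40 rose with a log2 fold change of 1.79 (edgeR adjusted p = 0.01143), while Rnf20 (-0.46) and Rad18 (-0.19) did not pass. Rnf20 passed without control replicate 1 (log2 fold change -0.59, edgeR adjusted p = 0.02419), and Rad18 had a log2 fold change of 0.22 under scaling by library totals.

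**Figure D5:**
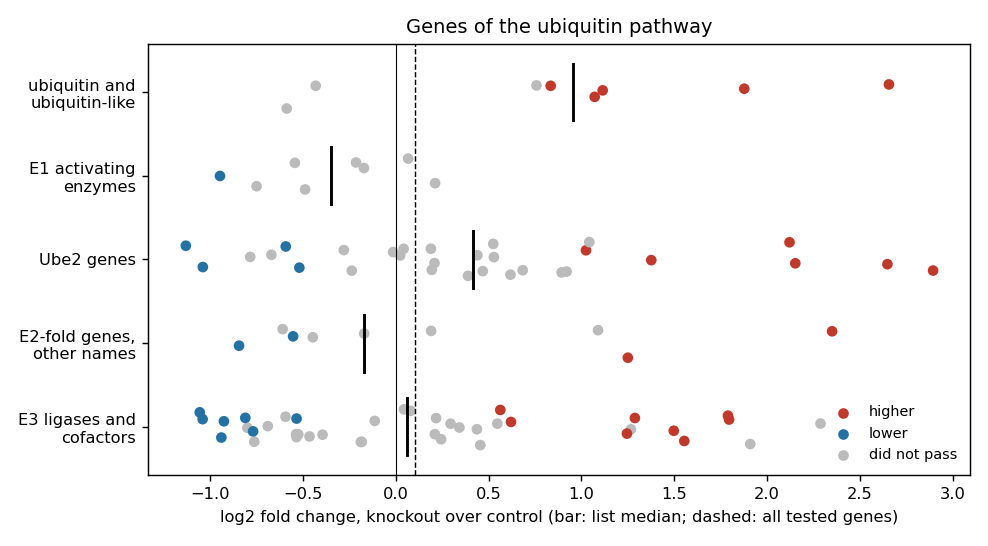
Each point is a tested gene of the ubiquitin pathway, by its log2 fold change, knockout over control, with red for genes that rose, blue for genes that fell and grey for those that did not pass. Black bars mark the median of each list, from 0.95 for the modifiers and 0.41 for the Ube2 genes to -0.35 for the E1 enzymes, and the dashed line marks the median of all tested genes at 0.10.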

How the data were processed

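Per the labels' protocols, RNA of single oocytes was amplified from poly(A) tails with the SMARTer Ultra Low kit, without strand or molecular identifiers, and sequenced as 75-bp single reads. A level therefore depends on polyadenylation as well as abundance, amplified copies are counted as reads, and floors cover counting error only. The submitters' processing notes name GSNAP, featureCounts 1.4.4, DESeq2 1.3.79 and mm10. Per the file headers, the deposited counts were made with the Ensembl 69 annotation, taking reads of mapping quality 1 or more, unstranded and with no option set for multiply mapped reads, and gene length is given in bases. The authors' deposited table of 2709 genes, none with an adjusted p above 0.009996, gives RPKM, normalized signal, log2 fold changes, a Wald score and p-values. Apart from values credited to it, every result comes from the deposited counts.

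Symbols came from a gene name table (35449 identifiers) and the deposited table (10), and 1765 identifiers stayed unnamed. Of 37224 genes, 18743 had no count. The 8 libraries were grouped by the genotype label. After filterByExpr left 11066 genes, knockout was compared with control by the quasi-likelihood F test of edgeR 4.0.16 (R 4.3.3) with TMM factors and no covariate, and p-values were adjusted over these genes (Benjamini-Hochberg). An SE is the log2 fold change over the square root of its F value. Simulated counts were used to test the script. Alternatives were median-of-ratios factors, library totals, DESeq2 1.42.0, no filter, a filter of 10 CPM in 4 libraries, the replicate number as a block, removal of the length trend (loess span 0.5), thinning to the smallest total, an adjusted p under 0.01 and leaving out each library. Members and lists were chosen with earlier results of these data known. Every library is given for each changed member, Ube2a, Ube2b, the 5 members highest per kilobase and Setd1b; of each other list at most 6 changed genes by smallest p were named, and further names were added after their values were seen. Sequence windows and shared 75-base stretches come from GENCODE M21 transcripts on GRCm38. Some genes that enter the counts are not reported here.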

Additional observations from a re-analysis of the deposited data

Results flagged for a closer look

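Of the 24 groups of 4 oocytes examined for an oocyte far from the rest (the changed members, Ube2g1 and Setd1b, in each genotype), 5 held one by Dixon's test, where chance gives about 1 in 20. Ube2b was at 74.7 CPM in knockout replicate 2, where the next oocyte had 57.1. Ube2d3 was at 2181 CPM in knockout replicate 2, where the next had 2035. Ube2f was at 5.27 CPM in control replicate 3, where the next had 0.990. Ube2t was at 225 CPM in control replicate 1, where the next had 67.5. Ube2g1 was at 639 CPM in control replicate 4, where the next had 463.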

How the results depend on the processing

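The directions of the 10 changed Ube2 genes held under each alternative that was run. Ube2a, Ube2b, Ube2t, Ube2m and Ube2d2a also passed in each, except that Ube2m was not tested with at least 10 CPM in 4 libraries and did not pass at an adjusted p under 0.01. Of all tested genes 1503 were higher and 1347 lower, against 2377 and 510 with library totals, 1090 and 861 with the replicate block, 747 and 644 at an adjusted p under 0.01, and 1012 to 1529 higher and 861 to 1241 lower without 1 library, the lowest of both without knockout replicate 2. Among the Ube2 genes 6 were higher and 4 lower, against 10 and 1 with library totals, 5 and 1 with the replicate block, 3 and 1 at an adjusted p under 0.01, and 4 to 6 and 2 to 4 without 1 library. The log2 ratio of the family's summed share of counts, knockout over control, was 0.22, but -0.17 with TMM and -0.21 with median-of-ratios factors. Over all tested genes, oocytes with the same replicate number did not deviate together (correlations of -0.159 to -0.031). These correlations cannot tell whether the numbers pair the oocytes in some genes only. Under the block Ube2d1, Ube2d3, Ube2g2 and Ube2k did not pass. With at least 10 CPM in 4 libraries Ube2d3 had an adjusted p of 0.05452.

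Genes near 0 that did not pass changed sign. With library totals the log2 fold change was 0.37 for Ube2cbp, 0.10 for Ube2h, 0.17 for Ube2w, 0.22 for Rad18 and 0.16 for Uba1. Ube2cbp was at 0.12 with at least 10 CPM in 4 libraries and at 0.0285 after thinning. Ube2o was at -0.0119 with median-of-ratios factors, -0.011 with DESeq2 and -0.0876 without the length trend, where Ube2q2 was at -0.16, Ube2r2 at -0.0106 and Ube2s at -0.0038. Without 1 library the log2 fold change was -0.15 to 0.14 for Ube2cbp, -0.0629 to 0.47 for Ube2e2, -0.35 to 0.41 for Ube2o, -0.19 to 0.28 for Ube2q2 and -0.03 to 0.61 for Ube2z. The causes were not tested. At this depth the 10 members left out by the filter on low counts have no test in the main fit. With no filter 7 Ube2 genes were higher and 4 lower.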
